A study of Mus musculus with 12 samples.

Results

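The Src family kinases were examined in medial prefrontal cortex (PFC) through Fyn itself, its relatives Src, Yes1, Lyn, Lck and Fgr, and Csk, the kinase that switches the family off. Every probe set that the platform's annotation gives to 1 of these 7 genes alone was taken, which gave 11 of 45101 probe sets, for 5 genes. Fyn, Src and Fgr had 2 each, Yes1 had 4 and Csk had 1, and Lyn and Lck were not analysed here. A filter on low signals, which left out the 45% of probe sets with the lowest mean over all arrays, was passed by 7 of the 11, and the 4 of Yes1 lay under it.

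Adult male mice of 12 weeks were used, either Fyn-null mice of the stock B6;129S7-Fyntm1Sor/J or control mice of the stock B6129SF2/J. All had been habituated to intraperitoneal injections of saline, and PFC was taken 4 hours after a last injection of ethanol (3 g/kg, a sedative dose) or of saline. The groups were Fyn-null ethanol, Fyn-null saline, control ethanol and control saline, with 3 Affymetrix whole-genome mouse arrays each. Every array was hybridised with the RNA of 1 pool, made from 3 mice of its group. Fyn is disrupted in all tissues of the null mice from conception on, and the control mice come from a separate stock, so the loss of Fyn and any other difference between the stocks cannot be told apart. PFC is a mixture of cells, in which fewer cells of a type cannot be told apart from less RNA per cell.

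Src family kinases are tyrosine kinases anchored at the inner face of the cell membrane, where they pass signals from surface receptors, integrins and adhesion molecules to the inside of the cell. Phosphorylation of a tyrosine in their tail by Csk holds them closed, and phosphatases that remove this phosphate open them. In neurons, Fyn and Src phosphorylate NMDA-type glutamate receptors, and Fyn also acts in oligodendrocytes at the onset of myelination. Lyn, Lck and Fgr are best known from blood cells, and Fgr from myeloid cells in particular.

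Signals are log2 RMA values, in which a difference of 1 is a doubling. They rank the pools for 1 probe set and do not rank the transcripts of different genes. Array medians lay between 5.40 and 5.48. Defining markers of neurons (5 of 5 genes), astrocytes (4 of 4) and oligodendrocytes (4 of 4) passed the filter, and those of B cells did not (0 of 3). Of 7 other cell types or regions 16 of 25 did. Microglia had 5 of 6, endothelium 3 of 3, T cells 3 of 5 and striatum 2 of 3. Neutrophils and blood monocytes had 1 of 3, red cells 1 of 2 and choroid plexus 1 of 3. Passing the filter thus does not by itself show that a cell type was present. Pools are called by their labels throughout. The pool labelled Fyn-null saline 4 and the pool labelled control saline 2 stand apart from their groups on the side of the other genotype. This holds in Fyn probe set 1417558_at, less clearly in Fyn probe set 1448765_at, in 1 of the Src probe sets and in the score that follows. Their labels are therefore in doubt. Whether these labels had been exchanged was not tested, and they were kept. Values without both are also given for Fyn, Src and Csk where a call changed and for the values that moved most. In a score of the genotypes made from 192 probe sets without these kinases, chosen between the ethanol groups so that Fyn-null pools are negative and control pools positive, pools labelled Fyn-null saline 2 and 3 had -1.07 and -1.10 and that labelled Fyn-null saline 4 had 0.343. Pools labelled control saline 1 and 3 had 0.597 and 0.368, and that labelled control saline 2 had -0.952.

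Fyn, the targeted gene, had a lower signal in Fyn-null than in control pools after ethanol, but neither of its probe sets passed the test. Fyn probe set 1417558_at had 9.01, 8.75 and 8.77 in pools labelled Fyn-null ethanol 1, 2 and 3 and 9.70, 9.45 and 9.33 in those labelled control ethanol 1, 2 and 4. Under saline it had 8.89, 8.64 and 9.45 in pools labelled Fyn-null saline 2, 3 and 4 and 9.31, 8.74 and 9.65 in those labelled control saline 1, 2 and 3. The ethanol groups did not overlap. The saline groups overlapped, because the pool labelled Fyn-null saline 4 was as high as control pools and the pool labelled control saline 2 as low as Fyn-null pools.

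For Fyn probe set 1417558_at the difference between Fyn-null and control pools was -0.65 after ethanol, a 0.636-fold signal (95% interval -1.15 to -0.16, adjusted p = 0.241, limma, n = 3 pools per group), and -0.24 after saline (-0.74 to 0.25, adjusted p = 1.00). Over both treatments it was -0.45 (standard error 0.17, adjusted p = 0.371). The exact two-sided permutation test over the 12 pools, 6 against 6, gave p = 0.0519, where the smallest p that the 924 arrangements allow is 0.00216. Leaving out both pools in doubt gave -0.72 after saline (standard error 0.16, adjusted p = 0.164) and, after ethanol at the same -0.65, a call (adjusted p = 0.0445). Over both treatments it gave -0.68, with adjusted p = 0.00398 in limma and p = 0.00794 in the exact permutation test, the smallest it then allows. This choice rests in part on Fyn itself and favours a difference. Pool by pool, Fyn probe set 1417558_at had one of the wider spreads on the array. Its SD within groups was 0.333, higher than that of 95.7% of the probe sets tested. By group, its SD was 0.417 and 0.463 in the Fyn-null and control saline groups, which hold the pools in doubt. In the Fyn-null and control ethanol groups it was 0.142 and 0.185. Fyn probe set 1448765_at had an SD within groups of 0.134, higher than that of 50.3%.

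The signal of Fyn in Fyn-null pools remained well above the middle of the array. In each of them, Fyn probe set 1417558_at exceeded at least 89.6% of the probe sets on the same array, and in all 12 pools its position lay between 89.6% and 95.4%. As signals do not rank the transcripts of different genes, this position does not tell how much Fyn RNA remained. The probes of this set could not be placed relative to the disrupted part of the gene, so the signal checks the labels only in part.

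Fyn probe set 1448765_at was lower and narrower in range. It had 7.81, 7.62 and 7.62 in pools labelled Fyn-null ethanol 1, 2 and 3, and 7.95, 7.80 and 7.94 in those labelled control ethanol 1, 2 and 4. In pools labelled Fyn-null saline 2, 3 and 4 it had 7.61, 7.50 and 7.75, and in those labelled control saline 1, 2 and 3 it had 7.65, 7.53 and 7.91. Its groups overlapped under both treatments, after ethanol only by the highest Fyn-null pool. The difference was -0.22 after ethanol (standard error 0.11, adjusted p = 0.408), -0.078 after saline (adjusted p = 1.00) and -0.15 over both (adjusted p = 0.501, exact permutation p = 0.106). Without both pools in doubt it was -0.23 after saline (adjusted p = 0.696). Both Fyn probe sets thus had the same sign in all these comparisons, and they ran together over the 12 pools (Pearson r = 0.854, a description without a test).

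Src, the founding member of the family and, like Fyn, a kinase of the postsynaptic density, had the opposite sign. Src probe set 1423240_at had 7.83, 7.62 and 7.78 in pools labelled Fyn-null ethanol 1, 2 and 3 and 7.21, 7.01 and 7.11 in those labelled control ethanol 1, 2 and 4. In pools labelled Fyn-null saline 2, 3 and 4 it had 7.73, 7.65 and 7.17, and in those labelled control saline 1, 2 and 3 it had 7.00, 7.60 and 7.25. All Fyn-null ethanol pools were above all control ethanol pools. Under saline the pool labelled Fyn-null saline 4 and that labelled control saline 2 again stood with the other genotype.

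Between Fyn-null and control pools Src probe set 1423240_at differed by 0.64 after ethanol, a 1.55-fold signal (95% interval 0.29 to 0.99, adjusted p = 0.150), which did not pass. After saline the difference was 0.23 (-0.12 to 0.58, adjusted p = 1.00), and over both treatments 0.43 (standard error 0.12, adjusted p = 0.321). With only the ethanol groups in the fit it passed at the same 0.64 (adjusted p = 0.0255). Without both pools in doubt the difference after saline was 0.56 (standard error 0.12, adjusted p = 0.139), which did not pass. It then passed after ethanol (adjusted p = 0.0157) and over both treatments, at 0.61 (adjusted p = 0.00162), whereby the choice of the pools favours such a call.

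Src probe set 1450918_s_at, whose suffix marks a set that may share probes with other transcripts, also separated the ethanol groups. It had 8.31, 8.04 and 8.26 in pools labelled Fyn-null ethanol 1, 2 and 3 and 8.02, 7.78 and 7.81 in those labelled control ethanol 1, 2 and 4. In pools labelled Fyn-null saline 2, 3 and 4 it had 8.07, 8.38 and 8.13, and in those labelled control saline 1, 2 and 3 it had 7.995, 8.12 and 8.31. The lowest Fyn-null ethanol pool and the highest control ethanol pool were only just apart, and the saline groups overlapped. The difference was 0.34 after ethanol (standard error 0.12, adjusted p = 0.233), 0.051 after saline (adjusted p = 1.00) and 0.19 over both (adjusted p = 0.446). Unlike the other Src probe set, it did not set the pool labelled control saline 2 or that labelled Fyn-null saline 4 apart from their groups.

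**Figure D1:**
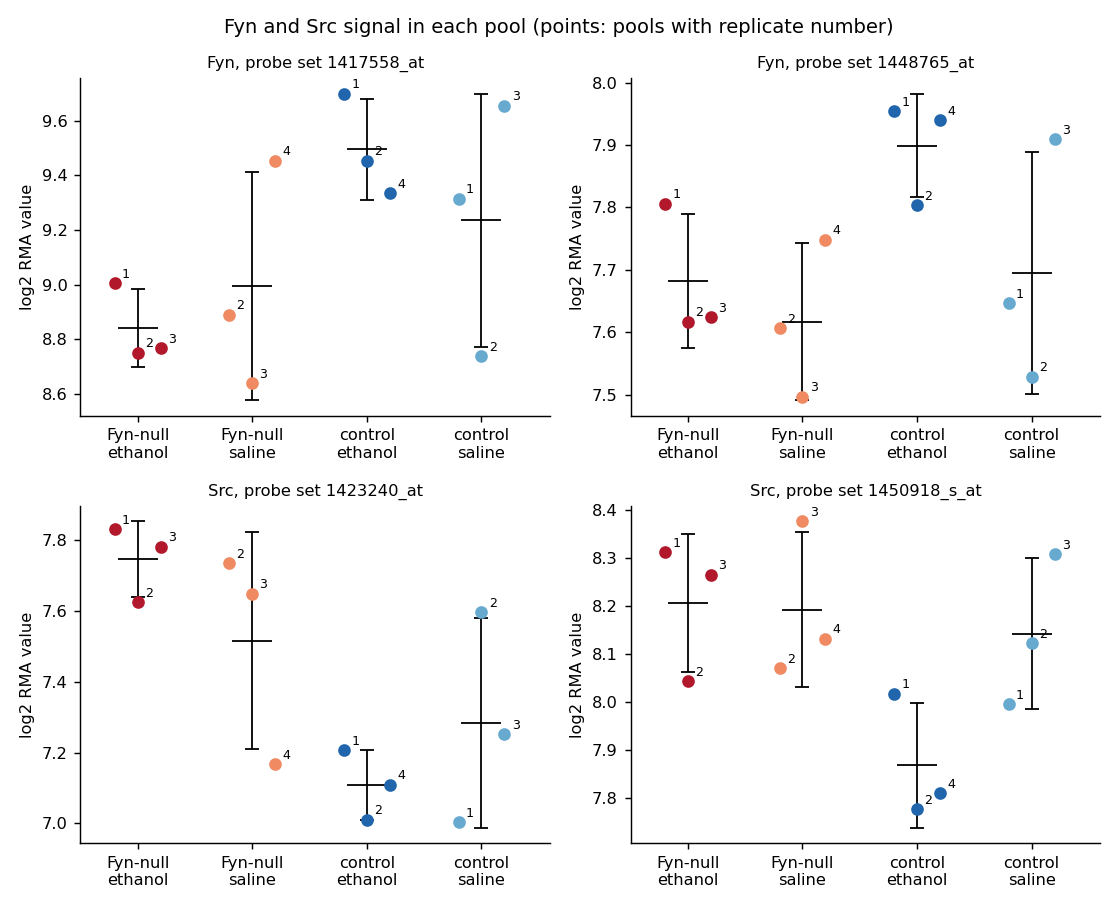
Log2 RMA value of both Fyn probe sets (upper row) and both Src probe sets (lower row) in each pool, by group, on an axis of its own for each probe set. Each point is 1 pool, numbered by replicate, and bars show mean ± SD (n = 3); after ethanol, Fyn 1417558_at was at most 9.01 in Fyn-null pools and at least 9.33 in control pools, and Src 1423240_at at least 7.62 and at most 7.21.

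Set against each other, Fyn probe set 1417558_at and Src probe set 1423240_at split the pools in the same way, though not in the same order within each part. The 6 pools with the lowest Fyn values, up to 9.01, were also the 6 with the highest Src values, from 7.60 upwards. In the other 6 pools Fyn was at least 9.31 and Src at most 7.25. The lower group on Fyn held 5 pools labelled Fyn-null and the pool labelled control saline 2, and the upper held 5 pools labelled control and the pool labelled Fyn-null saline 4. As the pools fell into separate clusters, no correlation is given between them.

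**Figure D2:**
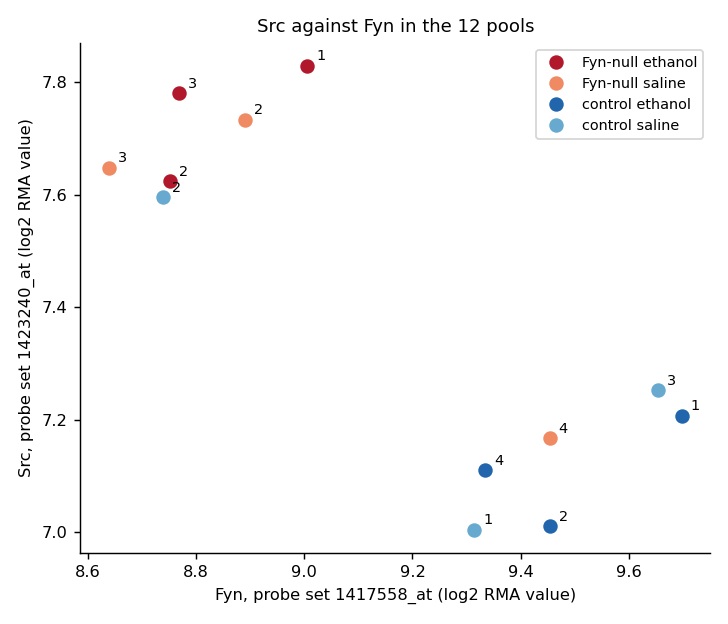
Src probe set 1423240_at against Fyn probe set 1417558_at in the 12 pools, both as log2 RMA values. Each point is 1 pool, numbered by replicate and coloured by group; 6 pools lie at Fyn values up to 9.01 with Src values from 7.60, and 6 at Fyn values from 9.31 with Src values up to 7.25.

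Over the 12 pools, the genes whose signal was most like that of Fyn probe set 1417558_at were Myo5b, a myosin motor (Pearson r = 0.970), Marchf7, a ubiquitin ligase (0.965), Nbeal1 (0.963), Gpd2, the mitochondrial glycerol-3-phosphate dehydrogenase (0.962), and Gnb4, a G protein subunit (0.958). At the opposite end stood 2610507I01Rik (-0.952), Tut4, an enzyme that adds uridines to RNA (-0.940), Get4 (-0.934), AW011738 (-0.932) and Bex2 (-0.926). Src probe set 1423240_at was most like Lsm8 (0.973), the cholesterol synthesis enzymes Cyp51 (0.972) and Lss (0.963), Bloc1s6 (0.962) and Tmem87a (0.958). Its lowest coefficients were those of Palm2 (-0.952), Zcchc3 (-0.952), E230029C05Rik (-0.951), Mapre1 (-0.951) and Map1lc3a (-0.950). These coefficients, out of 21218 probe sets, are a description over pools that fall into separate clusters.

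Src probe set 1450918_s_at had other neighbours. Epc1 (0.960), Arf2 (0.947), Ldha (0.941), Grn (0.939) and Ttc27 (0.937) were highest, and Gatad2a (-0.962), Scgb1b27 (-0.923), Foxm1 (-0.922), Agap2 (-0.918) and Napb (-0.898) lowest. None of these 10 was among the 10 named for Src probe set 1423240_at, and the correlation between the Src probe sets themselves was 0.651.

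Fgr, a kinase of myeloid cells, had weak signals with little difference between the groups. Fgr probe set 1419526_at lay between 5.57 and 6.03 in all 12 pools and probe set 1442804_at between 5.14 and 5.55. After ethanol, the differences between Fyn-null and control pools were -0.056 and -0.015 (adjusted p = 0.850 and 0.971). After saline they were 0.16 and 0.17 (standard errors 0.10 and 0.11, adjusted p = 1.00 for each). For probe set 1442804_at the saline groups did not overlap: it had 5.44, 5.55 and 5.55 in pools labelled Fyn-null saline 2, 3 and 4 and 5.43, 5.37 and 5.21 in those labelled control saline 1, 2 and 3. The nearest pools were almost level.

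Of the microglial markers on the array, 5 of 6 passed the filter, and their mean level ranged from 6.90 to 7.15 in Fyn-null pools and from 6.85 to 7.19 in control pools. Markers of neutrophils and blood monocytes, other cells that express Fgr, had a mean level between 4.94 and 5.53 in all pools, and 1 of 3 passed the filter. Whether cells of these types contributed to the signal of Fgr was not tested.

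Yes1, a widely expressed relative of Src, lay under the filter with all 4 probe sets, whose means over the 12 pools were 4.85, 4.65, 4.08 and 3.29. Tested in the fit without a filter, no Yes1 probe set passed in any comparison. Their differences between Fyn-null and control pools were -0.16 to -0.086 after ethanol (adjusted p = 0.727 to 0.888) and -0.032 to 0.15 after saline (adjusted p = 1.00 for all). The least variable, 1456843_at, had 4.64, 4.61 and 4.68 in pools labelled Fyn-null saline 2, 3 and 4 and 4.54, 4.49 and 4.44 in those labelled control saline 1, 2 and 3. These groups did not overlap, as was so for 5.16% of the probe sets that passed the filter. Their means differed by 0.15, which did not pass. Signals this low limit what could be detected.

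Counted over the 7 members' probe sets that passed the filter, 0 were called between the genotypes after ethanol, after saline or over both treatments, and likewise 0 of all 24770 probe sets were called (0%). An unadjusted p under 0.05 was reached by 3380, 467 and 2739 of the 24770. After ethanol the groups did not overlap for 3 of the 7, Fyn 1417558_at and both Src probe sets, beside 20.3% of all probe sets. Fyn was lower in Fyn-null pools, as were 6.51% of all, and the Src probe sets were higher, as were 13.8%. After saline it was 1 of the 7, Fgr 1442804_at, beside 5.16% of all, of which 2.94% were higher in Fyn-null pools. Over both treatments it was 0 of the 7, beside 0.307%. The 3 probe sets that parted the ethanol groups belong to 2 genes, so they are not separate counts of the family.

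**Figure D3:**
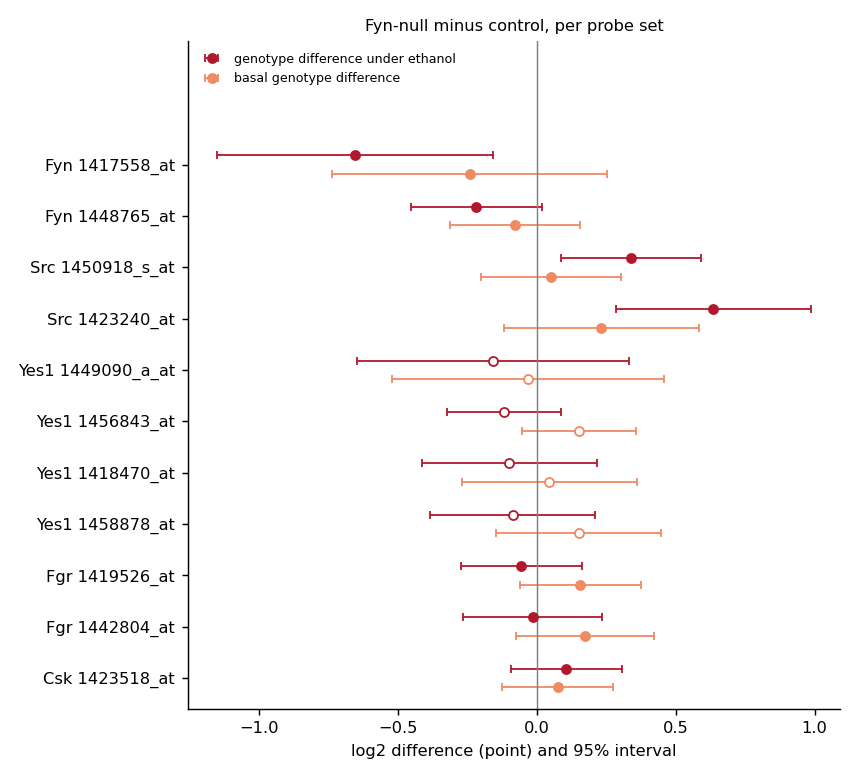
Log2 difference between Fyn-null and control pools for the 11 probe sets, after ethanol (dark) and after saline (light). Points are limma estimates (n = 3 pools per group) with 95% intervals, open where the probe set lay under the filter; Fyn 1417558_at at -0.65 and the Src probe sets at 0.34 and 0.64 after ethanol have intervals that leave out 0, and no probe set passed after adjustment.

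Csk, which puts the inhibitory phosphate on Fyn and Src, was the member that fell after ethanol. Csk probe set 1423518_at had 7.12, 6.85 and 6.97 in pools labelled Fyn-null ethanol 1, 2 and 3 and 7.15, 7.34 and 7.28 in those labelled Fyn-null saline 2, 3 and 4. In control mice it had 6.93, 6.94 and 6.74 in pools labelled control ethanol 1, 2 and 4 and 7.21, 7.14 and 7.20 in those labelled control saline 1, 2 and 3. All 6 ethanol pools, up to 7.12, were below all 6 saline pools, from 7.14 upwards, with the nearest pools close to each other. Its spread within groups was small, with an SD of 0.103.

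Over both genotypes Csk averaged 6.93 ± 0.13 after ethanol and 7.22 ± 0.077 after saline (SD, n = 6 pools each), a difference of -0.30 and a 0.815-fold signal (95% interval -0.43 to -0.16, adjusted p = 0.0162, limma). It was the only one of the 7 tested that passed, beside 6.81% of all 24770 probe sets, of which 4.22% were lower after ethanol. Groups of 6 did not overlap for 3.9% of all, with ethanol lower for 2.58%. Among Fyn-null mice the difference was -0.28 (standard error 0.092, adjusted p = 0.258) and among control mice -0.31 (adjusted p = 0.108), not passing in either genotype alone, though in each the ethanol and saline pools did not overlap. The difference between these responses was 0.031 (95% interval -0.25 to 0.31, adjusted p = 1.00). Without both saline pools in doubt, Csk still passed, and adjusted p lay between 0.0116 and 0.0438 when each pool was left out in turn.

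Measures of RNA quality and some markers of other cell types differed in the same contrast. Of the pool values that follow, only those of Gapdh and of the endothelial markers did not overlap between ethanol and saline pools. The signal at the 3' end of Gapdh minus that at its 5' end, a sign of RNA integrity, was -0.045 to 0.10 in ethanol pools and 0.11 to 0.53 in saline pools. That of actin was 0.71 to 1.15 in ethanol pools and 0.98 to 1.45 in saline pools. With the Gapdh value as a covariate, an alternative chosen after seeing the data, Csk was at -0.22 (standard error 0.092, adjusted p = 0.356), and with that of actin at -0.25 (standard error 0.10, adjusted p = 0.535), so its call was lost with either. Endothelial markers had a mean level of 6.66 to 7.03 in ethanol pools and 7.11 to 7.35 in saline pools, and 2 of 3, Cldn5 at -0.64 and Flt1 at -0.41, fell. Microglial markers had 6.85 to 7.14 in ethanol pools and 6.90 to 7.19 in saline pools, and 1 of 5 tested, Aif1 at -0.44, fell. Red cell markers had 4.53 to 4.88 in ethanol pools and 4.75 to 5.12 in saline pools, and the 1 tested, Alas2 at -0.37, fell. Striatum markers had 5.96 to 6.27 in ethanol pools and 6.02 to 6.15 in saline pools, and 1 of 2 tested, Ppp1r1b at 0.21, rose. In the lists of neurons, astrocytes, oligodendrocytes, T cells, neutrophils and choroid plexus 0 passed. The part of these cells in the fall of Csk was not tested.

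**Figure D4:**
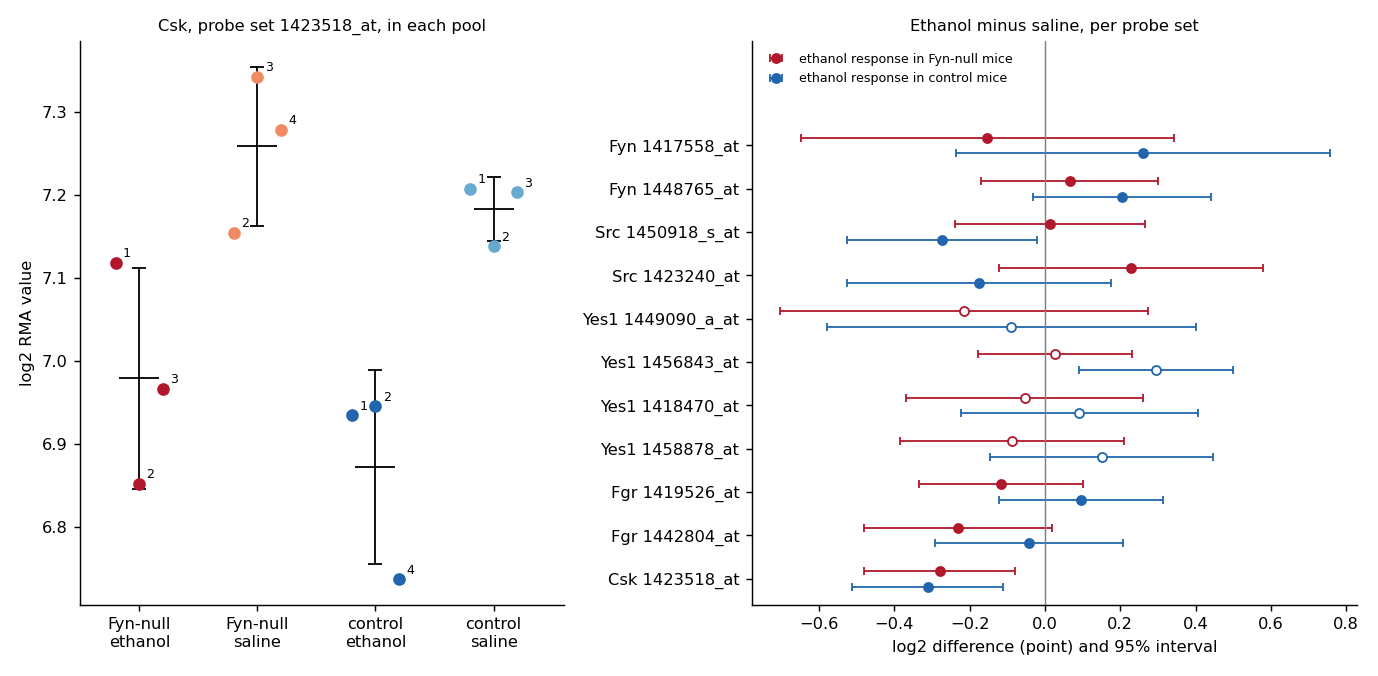
Left, log2 RMA value of Csk probe set 1423518_at in each pool by group (points with replicate number, bars mean ± SD, n = 3), with every ethanol pool at or below 7.12 and every saline pool at or above 7.14. Right, log2 difference between ethanol and saline pools for the 11 probe sets, in Fyn-null mice and in control mice. Bars are 95% intervals, and points are open for probe sets under the filter. The intervals of Csk leave out 0 in both genotypes, and those of Src 1450918_s_at and Yes1 1456843_at do so in control mice. No probe set passed after adjustment in either genotype alone.

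Fyn and Src themselves did not pass for ethanol. In Fyn-null mice the ethanol response of Fyn probe sets 1417558_at and 1448765_at was -0.15 and 0.065 (adjusted p = 0.856 and 0.874), and in control mice 0.26 and 0.20 (adjusted p = 0.549 and 0.325). The response of Src probe sets 1423240_at and 1450918_s_at was 0.23 and 0.014 in Fyn-null mice (adjusted p = 0.642 and 0.980) and -0.17 and -0.27 in control mice (adjusted p = 0.570 and 0.230). Without both saline pools in doubt, Fyn probe set 1417558_at was at 0.077 in Fyn-null mice and 0.012 in control mice, and Fyn probe set 1448765_at at 0.13 and 0.12. Src probe set 1423240_at was then at 0.054 and -0.019 and Src probe set 1450918_s_at at -0.016 and -0.28. None of these passed. Over both genotypes, in all 12 pools, Fyn was at 0.054 and 0.13, and Src at 0.027 and -0.13. Of the 7 members' probe sets, 0 were called for ethanol in Fyn-null mice, beside 0.4% of all probe sets, and 0 in control mice, beside 1.43%. The groups did not overlap for 1 of the 7 in each, Csk, beside 18.1% and 23% of all, of which 9.81% and 16.3% were lower after ethanol.

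Among the weaker signals, Fgr probe set 1442804_at was at -0.23 for ethanol in Fyn-null mice (adjusted p = 0.466, standard error 0.11), where 2 of 3 ethanol pools (5.18, 5.52 and 5.14) were below all saline pools. In control mice it was at -0.042. Yes1 probe set 1456843_at had 4.91, 4.86 and 4.59 in pools labelled control ethanol 1, 2 and 4 and 4.54, 4.49 and 4.44 in those labelled control saline 1, 2 and 3. These groups did not overlap, as was so for 23% of the probe sets that passed the filter. The response of this Yes1 probe set, 0.30 in control mice, did not pass (standard error 0.095, adjusted p = 0.177), and in Fyn-null mice it was 0.026.

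Whether the response to ethanol depended on the genotype was asked with the interaction. Src had an interaction of 0.40 for probe set 1423240_at (95% interval -0.092 to 0.90) and 0.29 for 1450918_s_at (-0.069 to 0.65), and Fyn of -0.41 (-1.11 to 0.29) and -0.14 (-0.47 to 0.19). Those of Fgr were -0.21 and -0.19 and those of Yes1 -0.27 to -0.13. None passed, with adjusted p from 0.983 to 1.00, and 0 of all 24770 probe sets were called (0%, with 1023 at an unadjusted p under 0.05). For Fyn and Src the intervals hold differences between the responses as large as those between the genotypes after ethanol. Without both saline pools in doubt the interaction of Fyn turned to 0.065 and 0.0097, and that of Src was 0.073 for probe set 1423240_at and 0.27 for 1450918_s_at. That of Csk was 0.064.

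Genes that act on or through these kinases were read from written lists, each gene by its probe set with the highest mean. Over both treatments 0 genes were called between Fyn-null and control mice in any of the lists, as were 0 of all 24770 probe sets (0%). Of the genes that restrain the family, 6 of 7 were tested, and the median difference was 0.0043, beside 0.015 over all probe sets. Matk, the Csk relative of brain and blood, was at 0.030, Pag1, the membrane anchor of Csk, at 0.10, and Srcin1, a Src inhibitor of synapses, at -0.039. Of the phosphatases, 6 of 7 were tested, with a median of -0.014. Ptpra, which removes the inhibitory phosphate, was at 0.060, its relative Ptpre at 0.031, Ptpn1 at -0.060 and Ptpn5, a phosphatase of striatum and cortex that dephosphorylates Fyn, at -0.11.

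Of 14 substrates and adaptors, 13 were tested and their median was -0.012. Grin2b, the NMDA receptor subunit that Fyn phosphorylates, was at 0.34 over both treatments (standard error 0.12, adjusted p = 0.355), and Dlg4, the scaffold Psd-95, at -0.012. After ethanol Grin2b was at 0.49 (adjusted p = 0.219). Grin2a lay under the filter. Of 12 surface receptors that signal through the family, all tested, the median was -0.021, with Itgb1, an integrin, at -0.035, Cntn1, a partner of Fyn in lipid rafts, at -0.11, and the adhesion molecules Ncam1 and L1cam at 0.081 and -0.0077. Blk and Frk, further Src-related kinases, lay under the filter with means of 4.27 and 2.48.

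For ethanol over both genotypes, Csk was the only gene of these 4 lists to be called, beside 6.81% of all 24770 probe sets. Matk was at 0.15 (adjusted p = 0.186), Pag1 at 0.0087 and Srcin1 at -0.011, and the median of the restraining genes was -0.0012, beside -0.021 over all probe sets. The phosphatases had a median of -0.10 with 4 of 6 below 0, among them Ptpra at -0.14, Ptpn1 at -0.069 and Ptpn5 at -0.20 (adjusted p = 0.101), while Ptpre was at 0.082. The substrates had a median of -0.088 with 9 of 13 below 0. Among them Grin2b was at -0.40 (standard error 0.12, adjusted p = 0.0617) and Dlg4 at -0.0054. The receptors had a median of -0.027, with L1cam at -0.23 (adjusted p = 0.0754), Ncam1 at -0.15, Cntn1 at 0.041 and Itgb1 at 0.074.

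**Figure D5:**
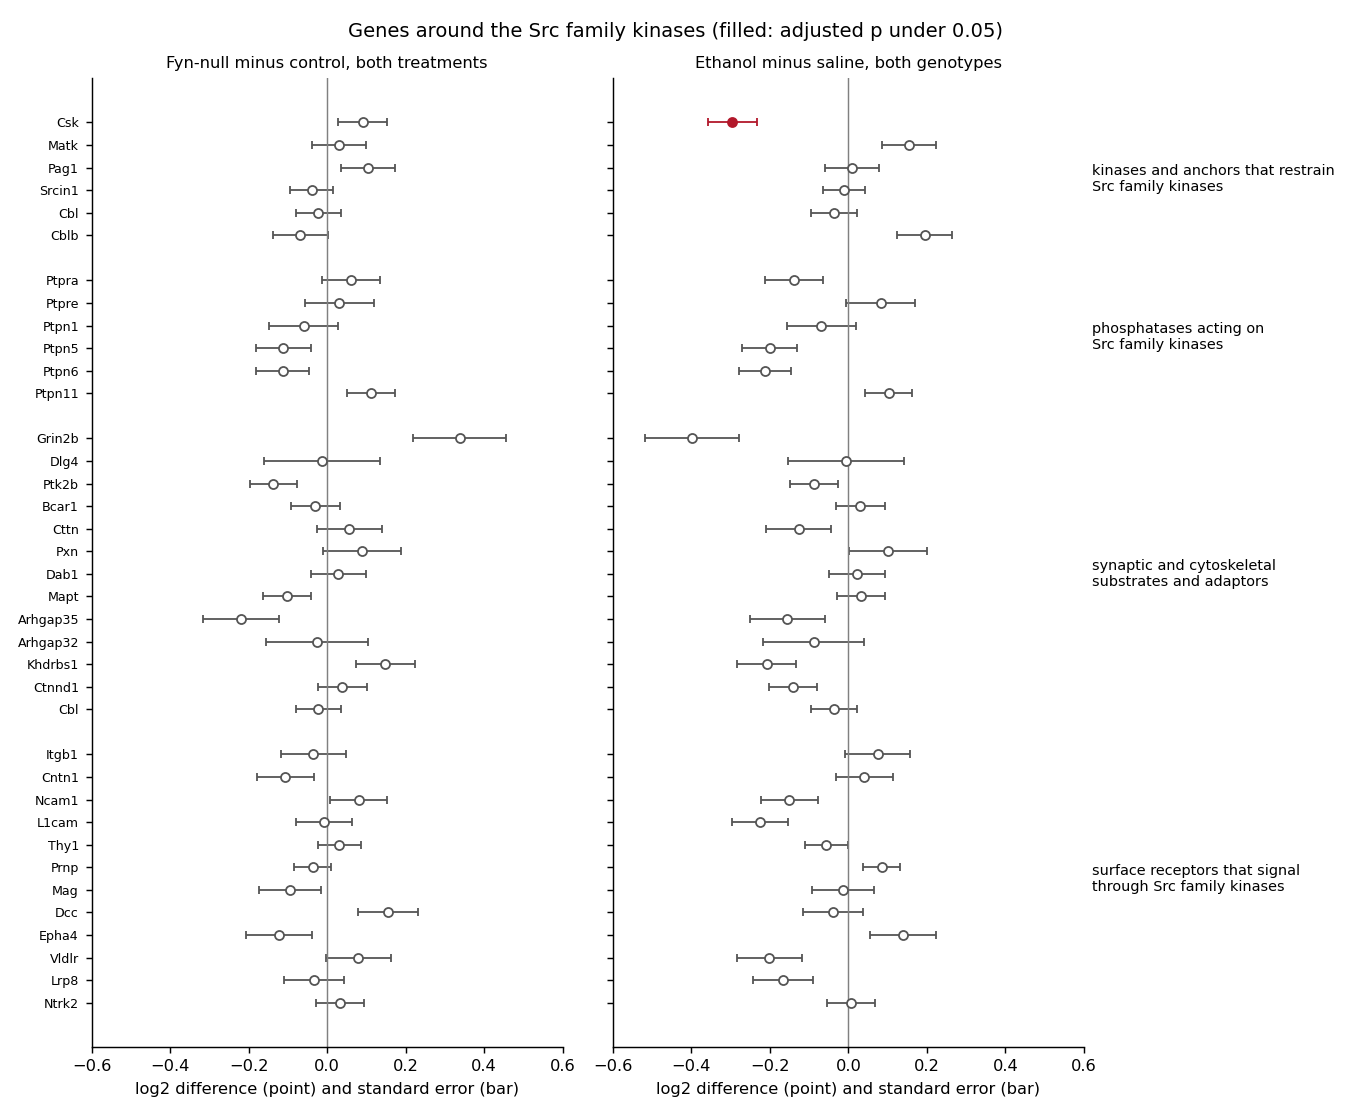
Log2 difference of each tested gene of 4 lists around the Src family kinases, between Fyn-null and control pools over both treatments (left) and between ethanol and saline pools over both genotypes (right). Points are limma estimates with standard errors (n = 6 pools against 6), filled where adjusted p was under 0.05, and Csk at -0.30 after ethanol is the only filled one. Of all probe sets, 0% were called between the genotypes and 6.81% for ethanol.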

How the data were processed

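The deposited log2 values had been computed from the arrays by the authors, using RMA and the affy package, per the submitters' processing notes. Software versions and the genome build are not given there, nor is it stated that these values had been corrected for batches as the Methods describe. The Methods' S-scores compare probe-level intensities and could not be made from these values. Pools of a group are separate pools of mice, more of which are counted in the sample labels than in the Methods.

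Probe sets were named from the platform's annotation. After 64 control probe sets and the 45% of the rest that had the lowest mean (under 5.15) had been set aside, 24770 remained. limma 3.58.1 (R 4.3.3) was fitted to them on all 12 arrays. Group means gave the comparisons of 3 pools against 3 and the interaction, and an additive model of genotype and treatment gave those of 6 against 6. P-values were adjusted over all 24770 probe sets by the Benjamini-Hochberg method, with calls at adjusted p under 0.05. Yes1 was tested in a fit of all 45037. Fyn was also tested by an exact two-sided permutation over arrays. The fit was checked on simulated data. Intervals are 95% confidence intervals. Precision is limited by the number of pools, and the median standard error was 0.11 for 3 against 3 and 0.076 for 6 against 6.

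Named are all probe sets of the 7 genes, the first 4 genes of each pathway list and any called, and the 5 highest and 5 lowest correlations of Fyn probe set 1417558_at and of each Src probe set. Other genes named were chosen after their values were seen. The members, lists and rules were chosen with earlier results of these data known. Alternatives were no filter or one of 60%, quantile normalization on top of RMA, a block for the replicate number, the trend and robust options of eBayes, a fit limited to the groups compared, and leaving out each array or both saline pools in doubt. RNA quality as a covariate was added after seeing the data.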

Additional observations from a re-analysis of the deposited data

How the results depend on the processing

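The count of members called stayed at 0, or at 1 for ethanol over both genotypes, under most alternatives. It was 1 between the genotypes after ethanol with only the 2 groups compared (Src), 2 without both saline pools in doubt (Fyn and Src), 2 over both treatments without both, and 0 for ethanol over both genotypes with the 3' minus 5' signal of Gapdh or of actin as a covariate (Csk at -0.22 and -0.25). The exact permutation test of Fyn passed for probe set 1417558_at after quantile normalization (-0.46, p = 0.0433), without both pools in doubt (-0.68, p = 0.00794), without Fyn-null saline 4 (p = 0.0173) and without control saline 2 (p = 0.00866), and for probe set 1448765_at without both (-0.22, p = 0.0238) and without control saline 2 (p = 0.0260). Leaving out each pool, its difference ranged from -0.57 to -0.38 and from -0.20 to -0.12.

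Of 45 differences of single member probe sets, 858 values under alternatives gave 825 on the same side of 0 and of the threshold, 5 that newly passed, 2 that no longer passed, and 26 with the sign turned, none of which passed. The 45 were those of Fyn, Src and Csk in all comparisons, and those of Fgr and of Yes1 1456843_at in some. Other differences of Fgr and Yes1 were left out of this tally. Without both pools in doubt the ethanol response of Fyn 1417558_at in Fyn-null mice turned to 0.077 and its interaction to 0.065, the interaction of Fyn 1448765_at to 0.0097, and the response of Src 1450918_s_at in Fyn-null mice to -0.016. With the replicate number as a block, the last was -0.029 and the interaction of Csk -0.063, which was -0.0068 after quantile normalization. With the Gapdh covariate Src 1450918_s_at was at 0.073 for ethanol over both genotypes. With each pool left out, genotype differences after saline ranged from -0.16 to 0.029 for Fyn 1448765_at and from -0.041 to 0.13 for Src 1450918_s_at. Ethanol responses in Fyn-null mice ranged from -0.33 to 0.077 for Fyn 1417558_at and from -0.047 to 0.11 for Src 1450918_s_at. Over both genotypes they ranged from -0.080 to 0.18 for Fyn 1417558_at and from -0.073 to 0.12 for Src 1423240_at, and the interaction of Csk from -0.038 to 0.095.

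Replicate numbers did not pair the pools: of 13 same-numbered pairs 3 had deviations correlated over 0.1 (range -0.43 to 0.32), and 2 of 12 pools were closest to one of their own number. The block changed no member's call.

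Over all probe sets, calls between the genotypes after ethanol numbered 0, but 193 with only the 2 groups compared, 260 without both pools in doubt, 1 with eBayes trend and robust and up to 35 with 1 pool left out (control saline 2). Over both treatments they were 669 without both, 1 with the 60% filter, 2 after quantile normalization and up to 129 (control saline 2), and after saline 44 without both. For ethanol in Fyn-null mice, 99 became 155 after quantile normalization, 26 with the block, 54 without both and 33 to 145 with 1 pool left out (fewest without Fyn-null ethanol 3). In control mice, 355 became 36 with the block, 18 with only the 2 groups compared, 147 without both and 76 to 410 (fewest without control saline 3). Over both genotypes, 1686 became 710 with the block, 110 and 30 with the Gapdh and actin covariates, and 770 to 1625 (fewest without Fyn-null ethanol 2). Csk passed in all but the covariate fits, where its standard error was 0.092 and 0.10 instead of 0.063. Low signal limits what could be found for Yes1.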

Other observations

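Genes on the chromosome of Src were looked at after their values had been seen. Of the 10 genes named for their likeness or opposition to Src probe set 1423240_at, 5 lay on chromosome 2, the chromosome of Src, as did 8.16% of the 21159 probe sets compared. These 5 were 48 to 417 genes away from Src, in a count that also holds genes left out of the 40 that follow. For Src probe set 1450918_s_at it was 1 of 10 and for Fyn probe set 1417558_at 2 of 10. Of the 40 measured genes nearest to Src, 20 on each side, the ethanol groups did not overlap for 15, beside 20.3% of all probe sets. Without overlap, 13 of the 40 were higher in Fyn-null pools, beside 13.8% of all, and 2 were lower, beside 6.51%. Among the 15, Ppp1r16b, a phosphatase subunit, was at 0.51, Scand1 at 0.39 and Myl9, a myosin light chain, at 0.38. Ift52 was at 0.34 and Vstm2l at -0.31. None passed the test.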
